A study of Mus musculus with 6 samples.

Results

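The MEF2 transcription factors Mef2a, Mef2c and Mef2d were represented by 14 of the 45101 probe sets on the arrays, chosen as every probe set annotated with exactly 1 of these 3 symbols. They are 3 of the 18193 genes measured. Mef2a had 6 probe sets, Mef2c 5 and Mef2d 3, and every one was measured on all 6 arrays. RNA came from C2C12, a mouse myoblast line that leaves the cell cycle when held in suspension and fuses into myotubes when it differentiates. The 3 PRDM2 knockdown (KD) samples came from a stable pool of C2C12 cells carrying an shRNA to PRDM2, which is a PR/SET domain zinc finger factor. The 3 control samples came from a stable pool carrying a GFP shRNA. All 6 samples had been kept for 48 hours in methylcellulose suspension with 20% fetal calf serum, the treatment the submitters used to bring myoblasts to G0. Both groups are pools of transfected cells of 1 line, not clones. The 3 samples of each pool are labelled as biological replicates, but separate transfections are not mentioned, so the p-values measure the spread between these samples only.

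MEF2 proteins are MADS box transcription factors that bind an A/T-rich element in the promoters and enhancers of muscle genes. They act together with the MyoD family of basic helix-loop-helix factors, which bind E boxes. Class IIa histone deacetylases hold them inactive, and kinases such as p38 and the calcium/calmodulin-dependent kinases release or stimulate them. In skeletal myoblasts Mef2a and Mef2d transcripts are usually present before differentiation, while Mef2c is a gene of the differentiation programme.

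The start regions of the 3 genes are shown side by side because the arrays called a change in 1 of them, Mef2c. The sequences are RefSeq's on GRCm38.p6, from 250 bases before to 50 bases after an annotated start, in the direction of transcription. The Mef2c window lies at chr13:83503784-83504083 on the plus strand, the Mef2a window at chr7:67372809-67373108 on the minus strand and the Mef2d window at chr3:88142122-88142421 on the plus strand. Capitals mark E boxes, searched as CANNTG on both strands, and the MEF2 motif, searched on both strands.
Mef2c: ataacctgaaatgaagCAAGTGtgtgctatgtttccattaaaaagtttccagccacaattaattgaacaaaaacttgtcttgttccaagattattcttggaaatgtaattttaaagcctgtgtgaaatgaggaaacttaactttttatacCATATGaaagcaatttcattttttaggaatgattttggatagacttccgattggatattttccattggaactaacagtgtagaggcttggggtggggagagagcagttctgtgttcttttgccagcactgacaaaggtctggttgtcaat
Mef2a: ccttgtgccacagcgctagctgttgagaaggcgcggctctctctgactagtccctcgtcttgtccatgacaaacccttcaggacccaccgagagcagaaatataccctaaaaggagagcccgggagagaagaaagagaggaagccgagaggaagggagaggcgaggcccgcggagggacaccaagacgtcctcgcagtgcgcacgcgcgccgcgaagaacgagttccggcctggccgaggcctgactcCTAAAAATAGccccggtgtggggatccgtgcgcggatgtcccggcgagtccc
Mef2d: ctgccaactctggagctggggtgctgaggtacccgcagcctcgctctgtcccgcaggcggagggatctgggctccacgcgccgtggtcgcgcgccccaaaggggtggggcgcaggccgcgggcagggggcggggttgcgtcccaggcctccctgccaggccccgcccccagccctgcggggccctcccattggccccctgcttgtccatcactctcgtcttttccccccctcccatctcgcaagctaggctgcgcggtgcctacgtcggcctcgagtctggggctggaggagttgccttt
The Mef2c window was A/T-rich, with a GC content of 35.7%, and held 2 E boxes. The Mef2a window had 62.3% GC and held 1 MEF2 motif, which began 2 bases before the annotated start. The Mef2d window had 72.0% GC and held neither element. The median GC content over the 32851 windows in the RefSeq table was 52.7%, the MEF2 motif occurred in 3.19% of them and an E box in 72.3%. The table gave 2 further windows for Mef2c. The one at chr13:83523406-83523705 had 47.0% GC and no match, and the one at chr13:83573357-83573656 had 48.3% GC and 1 E box. None of the 3 Mef2c windows held the MEF2 motif, which says only that these letters are not in these windows.

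The same search was run over the genes listed as MEF2 targets. In 23 of these genes with 30 windows, 4 genes held the MEF2 motif, which is 13.3% of the windows, against 3.19% of all windows. An E box occurred in 90.0% of the 30, against 72.3% of all. The genes were listed because they are MEF2 targets, so these shares are a description and were not tested. The 30-base stretches around it are shown for the 3 of these genes that the arrays measured, since their transcripts are described below. Pgam2 is at chr11:5803857-5803886 on the minus strand, Srpk3 at chrX:73774328-73774357 on the plus strand and Jun at chr4:95052236-95052265 on the minus strand.
Pgam2: ttttgtgagaCTATTTTTAAgttcagctcc
Srpk3: agctgggaggCTATTTATAAaggcgagtga
Jun: acatcatgggCTATTTTTAGggattgactg
The motif began 80 bases before the annotated start in Pgam2, 67 before it in Srpk3 and 33 before it in Jun.

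The values on the arrays are linear intensities, 1 per probe set. Their median lay between 10.6 and 12.1 on the 6 arrays, and 55.1% to 58.2% of probe sets on an array were below 16. Log2 differences are KD minus GFP of quantile-normalized log2(intensity + 16) values, so they understate the change of dim probe sets. A probe set was called at a limma adjusted p under 0.05 over all 45037 probe sets tested. The arrays differed in control signals: on GFP array 3 the Gapdh control had a 5' to 3' intensity ratio of 0.0992, against 0.704 to 1.14 on the other 5 arrays. The beta-actin control ratio was 0.114 on GFP array 3 and 0.299 to 0.723 on the others. The Dap poly-A spike read 42.3 on KD array 3 and 43.1 on GFP array 3, against 160 to 350 on the other 4. Prdm2 itself had 3 probe sets, of which 0 were called (log2 differences -0.51, 0.10 and -0.75, limma adjusted p = 0.441, 0.773 and 0.475), so the arrays give no called loss of the targeted transcript. Their position relative to the shRNA target was not analysed here.

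Of the 14 MEF2 probe sets, 4 were called higher in KD cells, 0 were called lower and 10 were not called. Over all probe sets, 1.42% were called higher and 1.01% lower. All 4 calls were Mef2c. In bulk RNA, more cells with a transcript and more transcript per cell cannot be told apart. The median log2 difference of the 14 was 0.26, against -0.01 over all probe sets. The KD and GFP values did not overlap at 7 MEF2 probe sets, 5 of Mef2c and 2 of Mef2d, where 16.9% of all probe sets had groups that did not overlap. KD cells were above at 6 of the 7 and below at 1, a Mef2d probe set, against 9.03% and 7.86% of all probe sets.

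**Figure D1:**
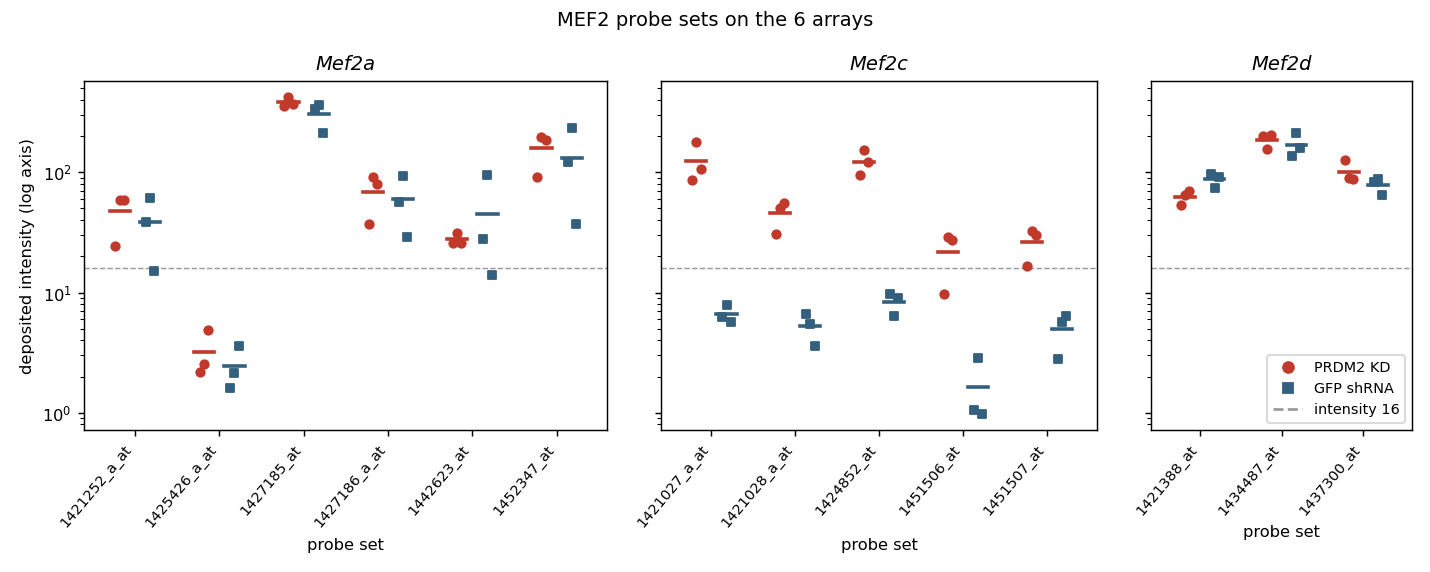
Deposited intensity (log axis) of each of the 14 MEF2 probe sets on the 3 PRDM2 KD arrays and the 3 GFP shRNA arrays, with the group mean as a bar and an intensity of 16 as a dashed line. At all 5 Mef2c probe sets the KD points lie above the GFP points, and every GFP point is below 16.

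Mef2c transcript was near the floor of the arrays in GFP cells and higher in KD cells. Its probe set 1421027_a_at read 85.9, 179.9 and 107 on KD arrays 1 to 3, against 6.25, 7.91 and 5.67 on GFP arrays 1 to 3. The groups were far apart, and KD array 2 stood highest. The mean was 124 ± 49.3 in KD cells and 6.61 ± 1.17 in GFP cells (SD, n = 3 each). All 3 GFP values lay below 16 and below the median of their array, so no ratio of the deposited means is given here. On the log2 scale with the offset the difference was 2.55 (SE 0.246, limma adjusted p = 0.00602).

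The probe set with the highest normalized mean, 1424852_at, read 94.6, 153 and 121 on the KD arrays, against 9.64, 6.32 and 9.04 on the GFP arrays. The lowest KD value was again on array 1 and the highest on array 2. Means were 123 ± 29.3 and 8.33 ± 1.77 in KD and GFP cells (SD, n = 3 each), with the GFP values again all below 16. Here the log2 scale gave a difference of 2.45 (SE 0.176, limma adjusted p = 0.00207). When each gene was represented by 1 probe set, Mef2c was called with an adjusted p of 0.00074 by limma over 18193 genes.

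Probe set 1421028_a_at read 30.5, 50.1 and 55.8 on the KD arrays, against 6.60, 5.48 and 3.58 on the GFP arrays. Here KD array 3, not array 2, was the highest. Its log2 difference was 1.50 (SE 0.166, limma adjusted p = 0.00952), and it no longer passed without KD array 2 (1.44, limma adjusted p = 0.0531).

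Of the 2 remaining Mef2c probe sets, 1 was called. Probe set 1451507_at read 16.5, 32.6 and 29.9 on the KD arrays, against 2.82, 5.63 and 6.33 on the GFP arrays. The groups did not overlap, with a log2 difference of 1.00 (SE 0.160, limma adjusted p = 0.0333). The call was kept without KD array 1 (adjusted p = 0.0282 by limma) and lost without KD array 2 (0.119), KD array 3 (0.133), GFP array 1 (0.130), GFP array 2 (0.0757) or GFP array 3 (0.0866).

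Probe set 1451506_at read 9.68, 28.8 and 27.1 on the KD arrays, against 1.06, 2.88 and 0.972 on the GFP arrays. The KD values lay above the GFP values, but the one on KD array 1 was itself below 16. Its log2 difference of 1.05 (95% interval 0.54 to 1.56) was not called (limma adjusted p = 0.0704), and it was called without KD array 1 (1.30, limma adjusted p = 0.0156).

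Over the 5 probe sets of Mef2c, the 15 KD values ran from 9.68 to 179.9 with 1 of them below 16, and the 15 GFP values ran from 0.972 to 9.64 with all 15 below 16. Every GFP value was also below the median of its array. KD array 1 was the lowest KD array at all 5 probe sets, and KD array 2 the highest at 4 of them. As a gene, Mef2c was called in 19 of 19 alternative settings, with log2 differences of 1.33 to 3.68 and limma adjusted p-values of 9.83e-06 to 0.0358. In 1 of these settings, a minimum mean intensity of 16 over all arrays, Mef2c passed only through its KD values. That call is therefore no separate support. With all arrays normalized together, the log2 difference at 1424852_at was 2.49 in the 4 arrays of higher spike signal and 2.39 for the pair of lower spike signal. At the level of probe sets, all 4 calls were lost when only the 4 arrays of higher spike signal were fitted (log2 differences 1.00 to 2.63, limma adjusted p = 0.0742 to 0.247) and with ordinary statistics in place of moderated ones (adjusted p = 0.0618 to 0.193 by limma's unmoderated fit).

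**Figure D2:**
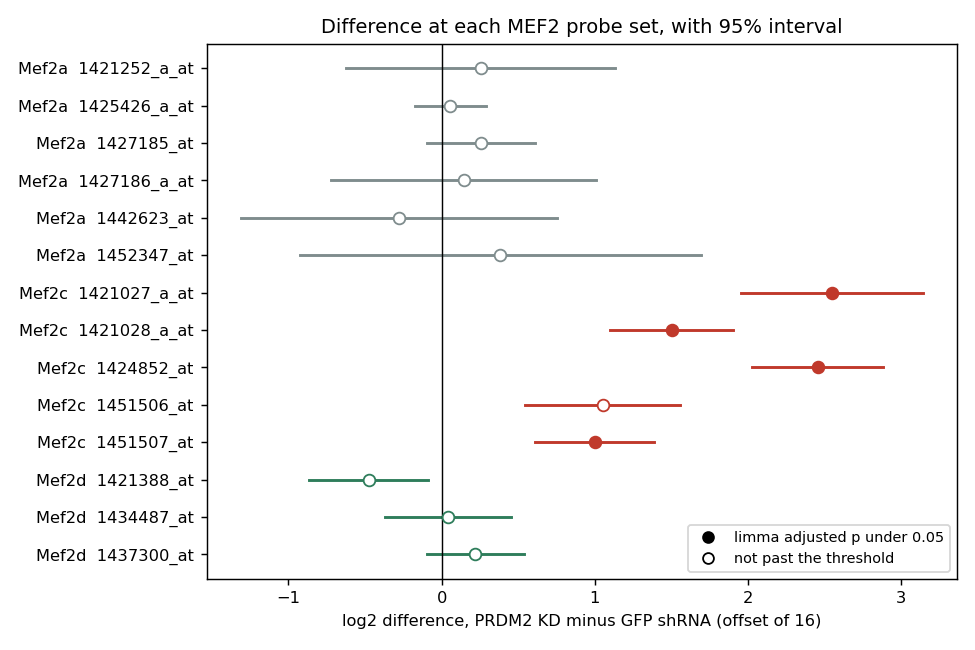
Log2 difference (KD minus GFP, offset of 16) at each MEF2 probe set with its 95% interval from limma. The 4 filled points, all Mef2c, passed an adjusted p of 0.05, while the intervals of all 6 Mef2a probe sets and of 2 of the 3 Mef2d probe sets include 0.

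Mef2a was present in both groups, and 0 of its 6 probe sets were called. Its probe set with the highest normalized mean, 1427185_at, read 352, 423 and 367 on the KD arrays, against 337, 359 and 213 on the GFP arrays. The groups overlapped, and GFP array 3 stood below the other 5 arrays. Means were 381 ± 37.5 in KD cells and 303 ± 78.6 in GFP cells (SD, n = 3 each). The log2 difference was 0.26 with a 95% interval of -0.09 to 0.61 (limma adjusted p = 0.632). The interval holds differences of either sign, and the missed threshold does not show that the levels were equal.

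The other Mef2a probe sets varied between arrays more than between groups. Probe set 1452347_at read 91.8, 198 and 184 on the KD arrays, against 121, 232 and 37.4 on the GFP arrays. Its highest and its lowest value were both on GFP arrays. The log2 difference of 0.38 had a 95% interval of -0.92 to 1.69 (limma adjusted p = 0.882).

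Probe set 1427186_a_at read 36.8, 90.6 and 79.3 on the KD arrays, against 56.4, 93.8 and 29.2 on the GFP arrays, and 1421252_a_at read 24.5, 58.9 and 59.1 on the KD arrays, against 38.6, 61.3 and 15.0 on the GFP arrays. Both had the pattern of 1452347_at, with GFP array 2 highest and GFP array 3 lowest. Their log2 differences were 0.14 (95% interval -0.72 to 1.01) and 0.26 (-0.62 to 1.13), with limma adjusted p-values of 0.944 and 0.883. Probe set 1442623_at read 25.9, 31.2 and 25.8 on the KD arrays, against 27.6, 94.3 and 14.0 on the GFP arrays, so that GFP array 2 stood alone. Its log2 difference was -0.28 (-1.31 to 0.75, limma adjusted p = 0.893). Probe set 1425426_a_at stayed between 1.61 and 4.88 on all 6 arrays and was near the floor (log2 difference 0.06, limma adjusted p = 0.906).

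The order of the arrays at 3 Mef2a probe sets followed an array control. From high to low, the beta-actin 5' to 3' ratio was 0.723 on GFP array 2, 0.549 on KD array 3, 0.399 on KD array 2, 0.302 on GFP array 1, 0.299 on KD array 1 and 0.114 on GFP array 3. Probe set 1421252_a_at had the same order, and 1427186_a_at and 1452347_at had it with 1 swap of neighbouring arrays. Of the 19899 probe sets with a mean intensity of at least 16, 740, or 3.72%, had that order within 1 such swap. This likeness was noticed after the values were seen, over 6 arrays.

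With the log2 of the beta-actin ratio as a covariate, the differences were 0.03 at 1421252_a_at, 0.02 at 1452347_at, -0.07 at 1427186_a_at and 0.18 at 1427185_at. In the 4 arrays of higher spike signal, with all arrays normalized together and no covariate, they were -0.21, -0.29, -0.24 and 0.14. For the pair of lower spike signal, KD array 3 minus GFP array 3, they were 1.20, 1.73, 0.91 and 0.49. The direction at the first 3 of these probe sets thus differed between the 2 sets of arrays. What part the control ratio or the spike signal has in this was not tested.

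**Figure D3:**
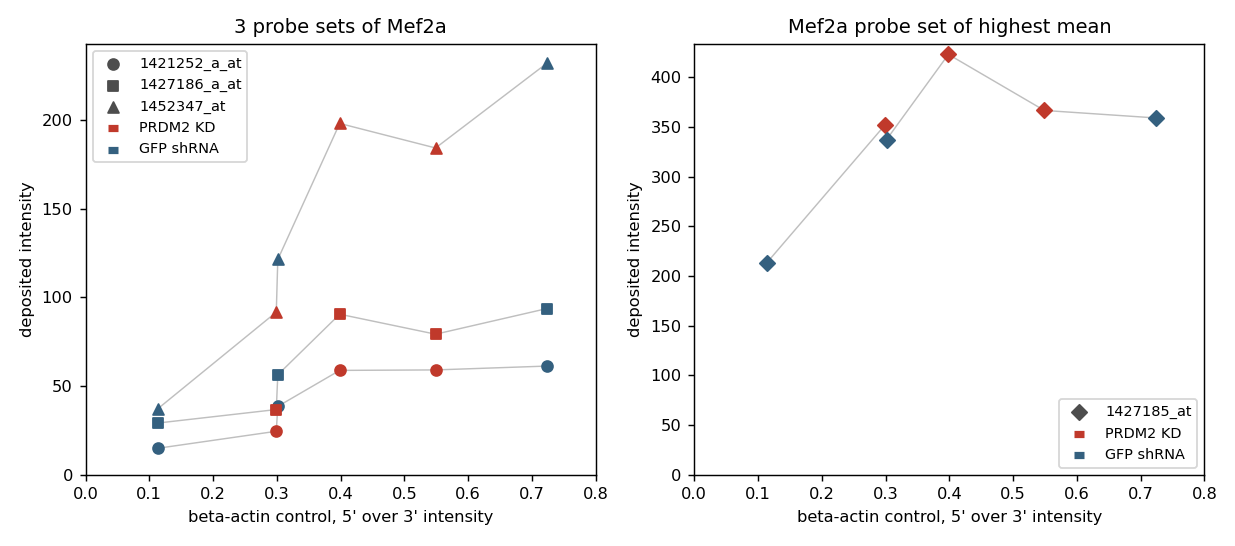
Deposited intensity of 3 Mef2a probe sets (left) and of the Mef2a probe set with the highest mean (right) against the 5' to 3' intensity ratio of the beta-actin control on each array, KD in red and GFP in blue. The lowest point of each line is GFP array 3, at a ratio of 0.114, and KD and GFP points do not separate along the lines.

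Mef2d was also present in both groups, and 0 of its 3 probe sets were called. Its probe set with the highest normalized mean, 1434487_at, read 199.7, 157 and 203 on the KD arrays, against 137, 214 and 159 on the GFP arrays. The groups overlapped throughout. Means were 187 ± 25.5 in KD cells and 170.1 ± 39.3 in GFP cells (SD, n = 3 each). The log2 difference was 0.04 with a 95% interval of -0.37 to 0.46 (limma adjusted p = 0.967).

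The other 2 Mef2d probe sets had differences of opposite sign. Probe set 1421388_at read 53.4, 64.7 and 70.2 on the KD arrays, against 97.0, 74.6 and 92.1 on the GFP arrays. All 3 KD values lay below all 3 GFP values. The log2 difference was -0.48 (95% interval -0.87 to -0.09, limma adjusted p = 0.296), with an exact two-sided permutation p of 0.1, the smallest that 3 arrays against 3 can give. Its sign was the same in 17 of 17 alternative settings, where the limma adjusted p was 0.103 to 0.660.

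Probe set 1437300_at read 126, 89.5 and 87.7 on the KD arrays, against 82.6, 88.2 and 64.1 on the GFP arrays. The deposited values overlapped by 1 pair of arrays, KD array 3 and GFP array 2, and the normalized ones did not. The log2 difference was 0.22 (95% interval -0.09 to 0.54, limma adjusted p = 0.654). The within-array log2 difference of 1421388_at minus 1437300_at differed by -0.70, KD minus GFP (exact two-sided permutation p = 0.1, adjusted to 0.311 over 28 pairs of probe sets of 1 gene, a comparison added after the values were seen). Such a gap was not particular to Mef2d: for Mef2c, 1421027_a_at minus 1451507_at differed by 1.55 (exact two-sided permutation p = 0.1, adjusted 0.311). Which Mef2d transcripts 1421388_at and 1437300_at read was not analysed here.

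The 3 genes were then compared in how much they differed between the groups, each by its probe set with the highest normalized mean. The Mef2c minus Mef2d log2 value within an array averaged -0.56 in KD cells and -2.97 in GFP cells, a difference of 2.41. The Mef2a minus Mef2c value averaged 1.53 in KD cells and 3.73 in GFP cells, a difference of -2.20. The ranges of the groups did not overlap in either case, and each had an exact two-sided permutation p of 0.1, the smallest possible, or 0.15 adjusted over 3 pairs. The GFP values of Mef2c lie below the offset, so the size of both differences depends on it. With an offset of 1 they were 3.63 and -3.41, and with an offset of 64 they were 1.30 and -1.11. For Mef2a minus Mef2d the difference was 0.21 (exact two-sided permutation p = 0.4, adjusted 0.4). A level is not compared between genes here, since each probe set has its own sensitivity, and where Mef2c is one of the pair the data give the direction of the shift between groups but no fixed size.

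The genes with the profile most like that of Mef2c over the 6 arrays were Chrng, Apobec2, Nmrk2, Cav3 and Tmem182. Likeness was the root mean square difference of the centred log2 values over the 6 arrays, among 9096 genes with at least the median mean intensity, and was 0.160 to 0.169 for these 5. Chrng encodes the fetal gamma subunit of the muscle acetylcholine receptor. It read 109.6, 123 and 98.5 on the KD arrays, against 9.33, 4.28 and 9.39 on the GFP arrays. Like Mef2c, it was below 10 on every GFP array, where array medians were 10.6 to 12.1, and highest on KD array 2.

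Cav3, the muscle caveolin, read 60.0, 76.9 and 65.2 on the KD arrays, against 2.40, 0.978 and 1.72 on the GFP arrays. Apobec2, a muscle member of the deaminase-like APOBEC family, read 55.3, 88.8 and 70.7 on the KD arrays, against 2.75, 2.96 and 2.59 on the GFP arrays. Nmrk2, a nicotinamide riboside kinase of muscle, averaged 89.4 ± 16.2 in KD cells and 5.66 ± 2.51 in GFP cells (SD, n = 3 each), and Tmem182, a muscle transmembrane protein, averaged 141 ± 21.2 in KD cells and 10.6 ± 1.59 in GFP cells. All 5 were called higher, with log2 differences of 2.17 to 2.51. They were picked for this likeness and reached the median mean intensity only through their KD values. Their low GFP values and their differences thus follow from the choice and are a description. KD array 1 was their lowest KD array only for Apobec2 and Cav3, which is where the profiles part from that of Mef2c.

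**Figure D4:**
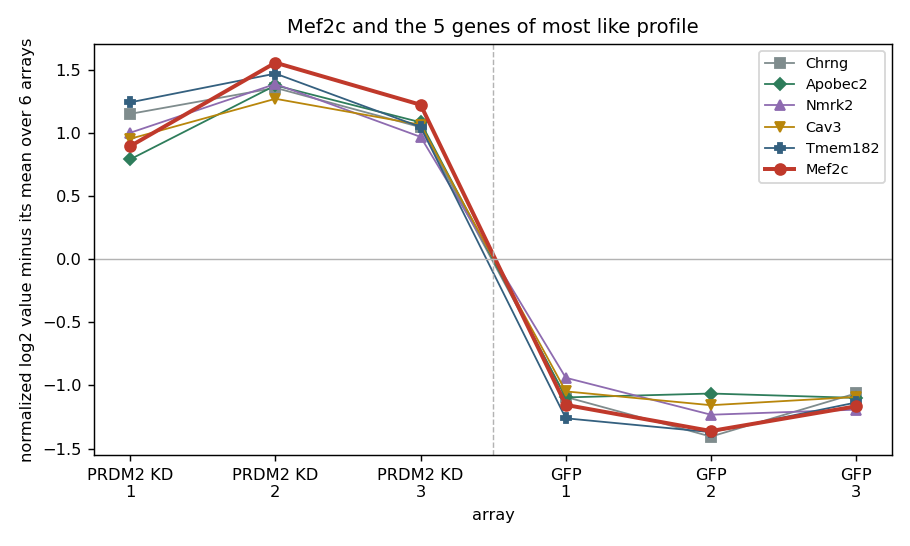
Normalized log2 value minus its mean over the 6 arrays for Mef2c and the 5 genes of most like profile, on KD arrays 1 to 3 and then GFP arrays 1 to 3. The lines run above 0 on all KD arrays and below 0 on all GFP arrays, and Mef2c has the widest gap between KD arrays 1 and 2.

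The genes most like Mef2a were Klhl11, Sdhaf2, Ndufs1, Vdac2 and Tmem106b, at 0.0377 to 0.0608, and 0 of these 5 were called. Ndufs1 is a subunit of mitochondrial complex I and Vdac2 a channel of the outer mitochondrial membrane. All 5 had their lowest value on GFP array 3, as Mef2a had. They were picked for likeness to Mef2a, which was not called, so this and the 0 calls follow from the choice. The genes most like Mef2d were Tnfrsf1a, Zfp512b, Slc25a3, Kbtbd11 and Klhl24, at 0.0578 to 0.0779, and 0 of these were called. Those 0 calls follow from the choice in the same way. Tnfrsf1a is a receptor of tumour necrosis factor and Slc25a3 the mitochondrial phosphate carrier.

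Among 28 genes listed as targets of MEF2, 27 were measured, and 12 rose, 2 fell and 13 were not called. Over all 18193 genes, 2.96% were called higher and 2.19% lower. The median log2 difference of the 27 was 0.31, against 0.00 over all genes. The list holds genes of the muscle differentiation programme at large, which MyoD family factors also drive, and it was drawn up with earlier results of these data known. When each array was left out in turn, 10 to 12 of its genes were called higher, and 5 were with ordinary statistics in place of moderated ones.

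Myog, the MyoD family factor myogenin, read 461, 448 and 763 on the KD arrays, against 44.1, 15.8 and 16.5 on the GFP arrays. Every KD value was far above every GFP value. This was a log2 difference of 3.78 (SE 0.330, limma adjusted p = 0.00158). Tnnc1, the slow and cardiac troponin C, read 1105, 1364 and 1126 on the KD arrays, against 77.9, 38.6 and 92.4 on the GFP arrays, a log2 difference of 3.82 (SE 0.313, limma adjusted p = 0.00124). Mb, the oxygen store myoglobin, read 543, 774 and 509.7 on the KD arrays, against 43.3, 9.33 and 35.5 on the GFP arrays, a log2 difference of 3.77 (limma adjusted p = 0.00221).

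Xirp1, an actin-binding protein of developing muscle, read 57.8, 56.8 and 94.5 on the KD arrays, against 1.96, 3.09 and 3.40 on the GFP arrays. Lmod3, a leiomodin that nucleates sarcomeric actin, read 70.5, 68.9 and 94.7 on the KD arrays, against 6.74, 5.47 and 5.61 on the GFP arrays. Their log2 differences were 2.12 and 2.05 (limma adjusted p = 0.00127 and 0.00046). Both were below 10 on all GFP arrays, as Mef2c was, but 55.1% to 58.2% of all probe sets on these arrays were below 16.

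Pgam2, the muscle phosphoglycerate mutase whose MEF2 motif is printed above, averaged 91.7 ± 7.24 in KD cells and 9.74 ± 2.52 in GFP cells (SD, n = 3 each), a log2 difference of 2.03 (limma adjusted p = 0.000441). The other 6 that rose were Myom1 (1.97), Tnni1 (1.70), Lmod2 (1.67), Smyd1 (1.33), Eno3 (1.10) and Abra (0.56), all given as log2 differences. Abra was below 16 on all 6 arrays, at 11.6, 15.2 and 8.56 on the KD arrays, against 2.54, 2.53 and 3.44 on the GFP arrays. They include proteins of the sarcomere (Myom1, Tnni1, Lmod2), a muscle methyltransferase (Smyd1), the muscle enolase (Eno3) and an actin-binding activator of SRF signalling (Abra). Myom1 and Lmod2 were called in 19 of 19 alternative settings, Tnni1 in 17, Smyd1 in 16, Eno3 in 10 and Abra in 9 of 18. In the setting with a minimum mean intensity, Myom1, Lmod2 and Smyd1 passed only through their KD values. Eno3 (limma adjusted p = 0.0295) was lost without any 1 of KD arrays 1 to 3 or GFP arrays 1 and 2, with adjusted p-values by limma of 0.00729 to 0.181 over its alternatives, and Abra (limma adjusted p = 0.0364) without any array but KD array 3 (0.00594 to 0.142).

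Ppargc1a and Klf6 fell. Ppargc1a, the coactivator PGC-1alpha of mitochondrial genes, read 12.2, 8.00 and 3.25 on the KD arrays, against 37.7, 27.6 and 29.0 on the GFP arrays (log2 difference -1.01, limma adjusted p = 0.0249). It was called in 11 of 19 alternative settings and was lost without KD array 2 or 3 or GFP array 1 or 3, with limma adjusted p-values of 0.00412 to 0.158 over the alternatives. Ppargc1a passed the minimum mean intensity only through its GFP values. Klf6, a zinc finger factor, read 187, 181 and 189.9 on the KD arrays, against 389, 360.3 and 260.4 on the GFP arrays (log2 difference -0.86, limma adjusted p = 0.00624). It was called in 17 of 19 alternative settings, and 0 of its 4 other probe sets were called.

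The targets of highest mean that were not called were Aldoa, Des and Jun. Aldoa, a glycolytic aldolase, averaged 2683 ± 132 in KD cells and 2619 ± 429.7 in GFP cells (SD, n = 3 each), a log2 difference of 0.01 (95% interval -0.25 to 0.28). Des, the muscle intermediate filament desmin, averaged 789 ± 147 in KD cells and 977 ± 125 in GFP cells, a log2 difference of -0.36 (-0.81 to 0.09). Jun, an AP-1 subunit with a MEF2 motif near its start, read 671, 459 and 848 on the KD arrays, against 532, 854 and 258 on the GFP arrays. The groups overlapped, and the difference of 0.31 (-0.58 to 1.21) was negative in 2 of 19 alternative settings.

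Some targets had probe sets that disagreed. Ckm, the muscle creatine kinase, was not called at the probe set with the highest normalized mean (51.0 ± 15.8 in KD cells and 81.1 ± 33.7 in GFP cells, SD, n = 3 each). Its other probe set was called higher, at 186 ± 37.4 in KD cells and 13.9 ± 4.52 in GFP cells (log2 difference 2.69, limma adjusted p = 0.00209). Srpk3, a muscle protein kinase, was likewise not called at its representing probe set (0.03), while 1 of its 3 others was called higher, at 34.7 ± 11.2 and 2.87 ± 1.72 in KD and GFP cells (log2 difference 1.38, limma adjusted p = 0.0124). The disagreement ran the other way at called targets. For Mb, called at 3.77, the other probe set was not called, at 59.6 ± 27.5 in KD cells and 40.1 ± 15.9 in GFP cells (log2 difference 0.33, limma adjusted p = 0.839). For Smyd1, 1 of the 5 other probe sets was called higher (1.01), the remaining 4 had differences of -0.12 to 0.03, and the gene was not called by the mean over its probe sets. For Ppargc1a, 1 of the 4 others was called lower (-0.97), and the remaining 3 had differences of -0.48 to -0.41. These probe sets, and the genes outside the rule for named genes, were singled out after their values were seen.

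**Figure D5:**
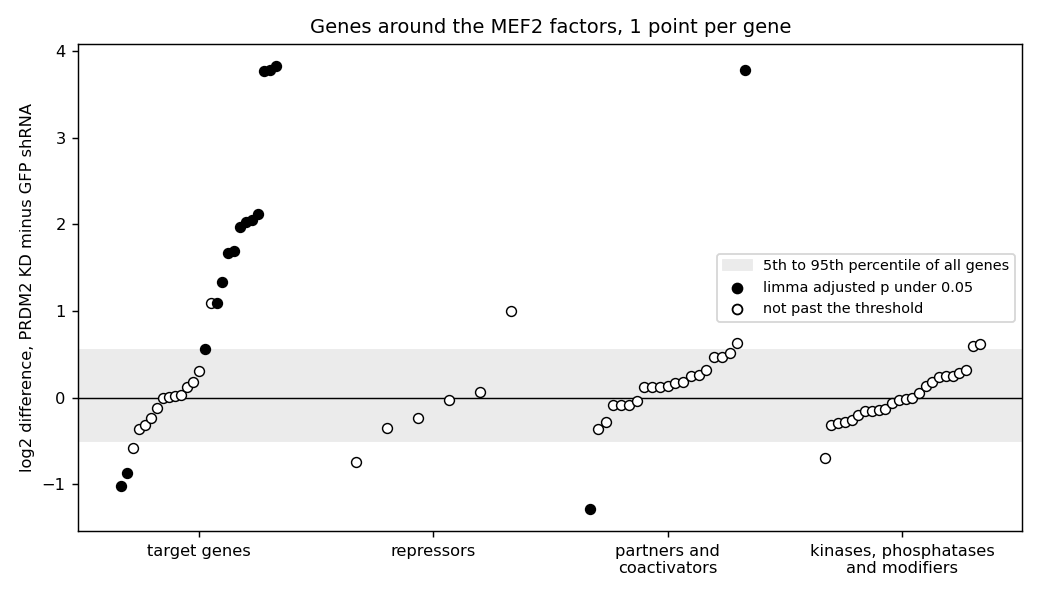
Log2 difference (KD minus GFP) of each measured gene in 4 lists around the MEF2 factors, 1 point per gene, with filled points for a limma adjusted p under 0.05 and the range from the 5th to the 95th percentile of all genes shaded. Of the filled points, 14 are in the target list, and 2 are among the partners (Myog, which is in both lists, and Myf5).

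Of 21 partners and coactivators, 1 rose, 1 fell and 19 were not called, with a median log2 difference of 0.13. The shares among all genes were 2.96% called higher and 2.19% lower, so counts this small are near that background. The one that rose was Myog. Myf5, the MyoD family factor of early myoblasts, fell: it read 74.6, 80.6 and 47.4 on the KD arrays, against 220.0, 170.1 and 143 on the GFP arrays (log2 difference -1.29, SE 0.184, limma adjusted p = 0.011). The KD and GFP values were well apart, and Myf5 was called in 17 of 19 alternative settings. The partners of highest mean that were not called were Tcf12, Thra and Ep300. Tcf12, the E protein HEB that pairs with MyoD family factors, averaged 644 ± 76.7 in KD cells and 424 ± 76.3 in GFP cells (SD, n = 3 each), a log2 difference of 0.51 (95% interval 0.22 to 0.81, limma adjusted p = 0.0765). The difference was 0.12 for the thyroid hormone receptor Thra (-0.22 to 0.47) and -0.09 for the acetyltransferase Ep300 (-0.41 to 0.24). Nfatc4, a calcineurin-dependent factor, was not called at its representing probe set, while 1 of its others was called higher, at 114 ± 12.1 in KD cells and 25.8 ± 4.91 in GFP cells (log2 difference 1.59, limma adjusted p = 0.00126).

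Of the 8 listed repressors, 6 were measured, and 0 were called in either direction. With 2.96% of all genes called higher and 2.19% lower, 0 calls among 6 genes are no result about the list. Hdac5, a class IIa deacetylase that binds MEF2, read 206, 147 and 232 on the KD arrays, against 252, 296 and 403 on the GFP arrays, and Hdac7 of the same class averaged 60.3 ± 6.72 in KD cells and 77.0 ± 17.6 in GFP cells (SD, n = 3 each). Their log2 differences were -0.75 (95% interval -1.38 to -0.12) and -0.35 (-0.65 to -0.06), with limma adjusted p-values of 0.220 and 0.217. Hdac3, the deacetylase of the NCoR complex, had -0.24 (-0.51 to 0.03). Hdac4, also class IIa, lay the other way. It read 112, 62.0 and 102 on the KD arrays, against 43.6, 28.8 and 32.6 on the GFP arrays, with no overlap. Its log2 difference of 0.99 (0.48 to 1.51) missed the threshold (limma adjusted p = 0.0534), and it was called in 6 of 19 alternative settings. Hdac4 falls outside the rule for named genes and was chosen after its values were seen.

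Of 24 kinases, phosphatases and modifiers of MEF2, 0 were called, and their median log2 difference was -0.03. Among all genes 2.96% were called higher and 2.19% lower, and a list this short could hold 0 calls at those shares. The modifiers of highest mean were Akt1, Ppp3ca and Camk2g. Ppp3ca, a catalytic subunit of calcineurin, averaged 637 ± 112 in KD cells and 405 ± 151 in GFP cells (SD, n = 3 each), a log2 difference of 0.61 (95% interval 0.09 to 1.14, limma adjusted p = 0.233). Camk2g, a calcium/calmodulin-dependent kinase, had 0.24 (-0.09 to 0.57), and the kinase Akt1 had -0.07 (-0.41 to 0.28). For Camk2a, another kinase of that family, a probe set other than the representing one was called higher, at 30.5 ± 2.97 in KD cells and 6.54 ± 2.76 in GFP cells (log2 difference 1.04, limma adjusted p = 0.011).

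Of the MADS box relatives, Mef2b was near the floor at 4.63 ± 0.723 in KD cells and 5.34 ± 1.92 in GFP cells (SD, n = 3 each). Srf, the serum response factor, read 152, 131 and 163 on the KD arrays, against 87.1, 103 and 107 on the GFP arrays. Its groups did not overlap, and the log2 difference was 0.42 (95% interval 0.07 to 0.76, limma adjusted p = 0.212).

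Markers of the labelled cell type and of other cell types were read on the same arrays. All 6 myoblast and muscle lineage markers were at 16 or above on at least 1 array, and 1 of the 6, Myf5, fell. Their summed intensity was 4089 to 4663 on the KD arrays and 4795 to 5261 on the GFP arrays. Most of each sum was Vim, which averaged 2917 ± 322 in KD cells and 3315 ± 178 in GFP cells (SD, n = 3 each). Of the others, Myod1 and Cdh15 had higher means in KD cells, and Des, Ncam1 and Myf5 had lower ones. Pecam1 marks endothelial cells and Ptprc leukocytes. Endothelial cells and neurons are among the cell types that also express Mef2c. All 6 samples came from 1 myoblast line, and the source of the Mef2c transcript was not tested with these markers. Of 6 endothelial markers, 4 were below 16 on all arrays, with sums of 45.8 to 76.0 on the KD arrays and 48.9 to 98.1 on the GFP arrays. Of 5 leukocyte markers measured, 3 were below 16 throughout (sums of 81.3 to 129 on the KD arrays and 122 to 206 on the GFP arrays), and of 6 neuronal markers 5 were (26.9 to 31.8 on the KD arrays and 32.4 to 43.9 on the GFP arrays). Among defining markers, Pecam1 averaged 2.74 ± 0.666 in KD cells and 2.61 ± 1.29 in GFP cells, and Ptprc 1.82 ± 0.961 in KD cells and 1.09 ± 0.554 in GFP cells (SD, n = 3 each). The 3 of these markers with means above 16 had lower means in KD cells. Csf1r, the receptor of a macrophage growth factor, averaged 61.9 ± 26.2 in KD cells and 113 ± 32.9 in GFP cells, a log2 difference of -0.82 (95% interval -1.49 to -0.15, limma adjusted p = 0.209). Adgre1, a macrophage surface receptor, averaged 25.6 ± 6.61 in KD cells and 33.02 ± 15.0 in GFP cells, and the endothelial Emcn 43.7 ± 13.0 in KD cells and 56.1 ± 22.6 in GFP cells. Their groups overlapped. No marker of these 3 other cell types was called. Among all genes 2.96% were called higher and 2.19% lower, so lists this short could hold 0 calls at those shares. No sum was higher on the KD arrays than the highest on the GFP arrays.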

How the data were processed

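Transcripts were measured on 3 Affymetrix arrays of PRDM2 KD cells and 3 of GFP shRNA cells. Trizol-extracted total RNA gave biotinylated cRNA, per the labels' protocols. The deposited values are 1 linear intensity per probe set and array. GCOS and PLIER are among the tools in the submitters' processing notes. Their versions, the background correction and the normalization were not given in the sources used here. There were 0 columns of other samples and 0 pairs of identical arrays.

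Intensities were transformed as log2(intensity + 16), quantile normalized between arrays over 45037 probe sets (64 control probe sets left out) and compared with lmFit and eBayes in R 4.3.3 with limma 3.58.1. P-values were adjusted by Benjamini-Hochberg over all probe sets, or over 18193 genes for the lists, where a gene was represented by its probe set with the highest normalized mean. Means ± SD are of the deposited intensities. Intervals are limma's 95% intervals. The test was tried on simulated data first.

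Symbols came from the platform annotation (1 symbol for 34945 probe sets, several for 932, none for 9160). Sequences are RefSeq's, and all 3 MEF2 symbols matched. Probe sets are given no position, since the build behind them is not stated.

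The members and lists were chosen with earlier results of these data known. The genes named are every MEF2 probe set, Prdm2, of each list up to 5 called rises, 5 called falls and the 3 genes of highest mean that were not called, and for each MEF2 gene the 5 genes of most like profile. Any other gene was picked once its values had been seen. The 6 arrays limit the precision of every value.

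Results were recomputed with other offsets, other scalings between arrays, a minimum mean intensity, other variance models, other ways to represent a gene, a replicate block and each array left out. Fits with the spike signal, the beta-actin ratio or the highest mean intensity were added after seeing the data.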

Additional observations from a re-analysis of the deposited data

How the results depend on the processing

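As a gene, Mef2c kept its direction and its call under the 19 alternatives run, and Mef2a and Mef2d had no call under any of them. Mef2c passed the minimum mean intensity only through its KD values. The control values of Mef2c lie below the offset, so the size of its difference depends on the offset. At the probe sets near the threshold, 1451506_at was called with an offset of 1 (log2 difference 3.03) and with a trended, robust variance model (1.05), and 1451507_at was not with an offset of 64 (0.38) or the beta-actin ratio as a covariate (0.98). Ordinary statistics without moderation called 112 probe sets higher and 49 lower, against 638 and 456, and 141 and 70 genes, against 539 and 399. They ended the calls of 1421027_a_at (2.55), 1421028_a_at (1.50), 1424852_at (2.45) and 1451507_at (1.00), and left 5 targets higher and 1 lower, with 0 partners higher and 0 lower. The alternatives with control signals were chosen after seeing the data. The 4 arrays of higher spike signal, here normalized on their own, called 120 probe sets higher and 64 lower, and 210 genes higher and 148 lower. There the same 4 Mef2c probe sets lost their calls at differences of 2.63, 1.36, 2.52 and 1.00, and Mef2a had negative differences at 1421252_a_at (-0.22), 1427186_a_at (-0.24) and 1452347_at (-0.29). In those arrays 1 target and 0 partners were lower. With the beta-actin ratio, 1427186_a_at had -0.072. Averaged over its probe sets, Mef2d had -0.071, and 0 targets were then lower. The offsets of 1 and 64 each left 1 target lower. Of the repressors, 1 was higher with no normalization, median scaling, a minimum mean intensity of 16, the trended model, the replicate block or without KD array 2, against 0 in the other settings, and 1 modifier was higher with genes represented by the highest mean intensity.

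With each array left out in turn, 244 to 508 probe sets were called higher and 141 to 398 lower, and 245 to 421 genes higher and 199 to 394 lower. The range was 1.38 to 1.67 at 1421028_a_at, 0.92 to 1.30 at 1451506_at and 0.90 to 1.16 at 1451507_at. For Mef2a, the sign changed with 1 array left out at 1421252_a_at (-0.075 to 0.53), 1425426_a_at (-0.0068 to 0.10), 1427186_a_at (-0.14 to 0.44), 1442623_at (-0.67 to 0.22) and 1452347_at (-0.15 to 0.87). It also changed at 1434487_at (-0.12 to 0.16), which represents Mef2d. At 1427186_a_at and 1434487_at, leaving out either of 2 arrays changed the sign, and at the others only 1 array did. Called targets that were lower numbered 1 to 2 and repressors higher 0 to 1. The cause of these differences between settings was not tested. The same replicate numbers occur in both groups. The deviations of same-numbered arrays correlated at 0.389, 0.0740 and 0.00357, and those of differently numbered arrays at -0.430 to 0.264. Only the first value lay above that range, so the numbers were not taken to pair the arrays. With the replicate block, 349 probe sets were called higher and 243 lower.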
